A study of Mus musculus with 165 samples.

Results

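The 10 genes described here serve MHC class I antigen presentation in the brain and liver of ageing mice. They are the heavy chains H2-K1, H2-D1, H2-Q6 and H2-Q7, the light chain B2m, the peptide transporter genes Tap1 and Tap2, the immunoproteasome subunits Psmb8 and Psmb9, and the regulator Nlrc5. They were taken by symbol, each matched to 1 of the 55471 Ensembl identifiers in the deposited count tables. Polyadenylated RNA was sequenced from brains and livers of male C57BL/6J/Ukj mice, an inbred strain, at 3, 9, 15, 24 and 28 months. The labels name no genotype or treatment other than age, and no brain region. The brain groups held 15, 16, 16, 17 and 18 libraries and the liver groups 16, 16, 16, 17 and 18. Every library belonged to 1 of 3 library preparations (preps), and each prep held 4 to 7 libraries of each age and tissue. Libraries of the 2 tissues that carry one age and one mouse number are from 1 animal, which gave 82 mice with both tissues among 83 in all.

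A class I molecule is a heavy chain paired with beta-2-microglobulin that holds a short peptide at the cell surface, where CD8 T cells and natural killer cells read it. The peptides are cut by proteasomes, in which interferon-inducible subunits can replace constitutive ones, and are pumped into the endoplasmic reticulum by the transporter that Tap1 and Tap2 encode. Nlrc5, the class I transactivator, acts on an enhanceosome at class I promoters, and interferon-gamma is the best known inducer of the whole set. Most cells of the liver carry class I, whereas resting neurons carry little and microglia and blood vessels are the better known sites in the brain.

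In GRCm38, 8 of the genes lie on chromosome 17 within the MHC. H2-K1 spans chr17:33996017-34000347 on the minus strand, and H2-D1 spans chr17:35262730-35267499 on the plus strand. The Qa genes H2-Q6 and H2-Q7 are neighbours on the plus strand, at chr17:35424850-35430055 and chr17:35439155-35443773. Psmb9 (chr17:34181987-34187764, minus strand), Tap1 (chr17:34187553-34197225), Psmb8 (chr17:34197721-34201454) and Tap2 (chr17:34203527-34216321) follow one another, the last 3 on the plus strand. B2m lies at chr2:122147686-122153083 and Nlrc5 at chr8:94434356-94527272, both on the plus strand.

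Promoter windows from 250 bases before to 50 after the start were found in RefSeq (GRCm38.p6) for 8 of the 10 genes, all but Tap2 and Nlrc5. The promoters are shown because genes of this set moved together in the libraries described below. The 4 heavy chains share 1 block, printed 5′ to 3′ on the gene's own strand from the kappaB site to the last CCAAT box. Capitals mark, in order, the kappaB site GGGNNTTCCC, the shortened interferon response core GAANNGAAA (read here on the opposite strand), the X2 or CRE core TGACG, and the CCAAT box in both orientations. The blocks lie at chr17:34000335-34000458 (H2-K1, minus strand), chr17:35262923-35263045 (H2-D1), chr17:35424677-35424799 (H2-Q6) and chr17:35439022-35439143 (H2-Q7).
H2-K1: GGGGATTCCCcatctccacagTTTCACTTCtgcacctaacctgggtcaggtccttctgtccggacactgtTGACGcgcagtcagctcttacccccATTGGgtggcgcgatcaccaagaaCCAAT
H2-D1: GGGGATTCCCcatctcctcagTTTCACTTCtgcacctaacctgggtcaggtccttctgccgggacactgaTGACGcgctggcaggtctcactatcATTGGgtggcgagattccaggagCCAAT
H2-Q6: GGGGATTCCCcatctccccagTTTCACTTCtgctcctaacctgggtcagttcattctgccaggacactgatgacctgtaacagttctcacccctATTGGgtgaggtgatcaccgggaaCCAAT
H2-Q7: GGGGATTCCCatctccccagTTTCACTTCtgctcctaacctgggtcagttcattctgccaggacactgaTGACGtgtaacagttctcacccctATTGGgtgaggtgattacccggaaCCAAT

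The H2-Q6 and H2-Q7 blocks were 96.7% identical over 123 aligned columns, against 87.1% for H2-K1 and H2-D1 and 82.3% to 83.9% for the other pairs. The kappaB site stood in all 4 heavy chain windows and in no other member's, and 1.75% of 32851 RefSeq mouse windows of this length held it on either strand. H2-Q6 lacked the TGACG core that H2-Q7 had in the same place. The core was in 6 of the 8 windows, all but those of H2-Q6 and Psmb8, against 20.8% of all windows, and the match in Tap1 and Psmb9 is 1 site in DNA that both windows hold. The shortened interferon response core, a motif added after the sequences were seen, was in the 4 heavy chains and in 7.52% of all windows. The CCAAT box was in 7 members, all but Psmb8, and in 37.4% of all windows.

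B2m and Tap1 are shown for contrast, as the 250 bases before the start on the plus strand (chr2:122147437-122147686 and chr17:34187306-34187555), with the same motifs in capitals.
B2m: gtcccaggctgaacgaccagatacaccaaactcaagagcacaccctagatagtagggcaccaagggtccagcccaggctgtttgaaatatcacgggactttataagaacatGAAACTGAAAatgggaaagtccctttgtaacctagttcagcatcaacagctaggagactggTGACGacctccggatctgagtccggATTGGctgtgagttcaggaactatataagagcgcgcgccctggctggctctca
Tap1: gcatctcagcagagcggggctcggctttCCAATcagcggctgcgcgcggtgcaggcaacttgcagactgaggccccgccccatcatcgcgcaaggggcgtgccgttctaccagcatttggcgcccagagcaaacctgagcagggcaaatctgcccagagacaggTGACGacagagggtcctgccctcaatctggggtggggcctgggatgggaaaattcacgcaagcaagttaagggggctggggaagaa

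B2m was the member with the full interferon response core GAAANNGAAA, present in 3.44% of windows, and it had TGACG and an inverted CCAAT box closer to the start. Tap1 and Psmb9 are divergent genes whose RefSeq starts lie 226 bases apart, so their windows are the same DNA over 275 of 300 bases. The gamma-activated core TTCNNNGAA was found in the window of Psmb8 and in 8.3% of all windows. These are matches of letters and no measurement of binding.

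Depth, in units of 1000000 counts, ran from 11.5 to 73.4 per brain library and from 5.82 to 57.5 per liver library. All 10 genes passed the filter on low counts, among 18711 genes kept in the brain and 15579 in the liver. The lowest count of a member in any brain library was 17, for Nlrc5, and the lowest in the liver was 94, for Psmb9. Summed neuron markers were 1654 to 4932 CPM (counts per 1000000 counts of the scaled library) in the brains and at most 54.96 CPM in the livers. Summed hepatocyte markers were 17380 to 117200 CPM in the livers. In the brains they had medians of 64.1 to 145 CPM and a maximum of 5914 CPM, nearly all of it Ttr, which choroid plexus also makes. The libraries least like the others of their tissue were brain 28-month mouse 15 and 24-month mouse 13, and liver 24-month mouse 13 and 28-month mouse 9. Brain 28-month mouse 15 had the fewest neuron markers (1654 against a median of 4102 CPM) and the most leukocyte markers (356 against 138 CPM). Reads of 100 bases could not separate all of these genes: 13.0% of the distinct 100-base stretches of H2-Q6 transcripts and 12.0% of those of H2-Q7 occurred in another gene, mostly in H2-Q relatives. Tap1 and Psmb9 overlap by 212 exonic bases on opposite strands. How the counting treated strand and shared reads is not given in the sources used here.

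All 10 genes rose in the brain between 3 and 28 months, by 1.32-fold for Tap2 to 3.83-fold for H2-Q6. The nonclassical heavy chains H2-Q6 and H2-Q7 (3.45-fold) rose most, the classical pair H2-K1 and H2-D1 rose by 1.84-fold and 1.78-fold, and the transporter gene Tap2 least. The median log2 fold change of the 10 was 0.86, against 0.01 over all genes tested. Their 10 calls compare with 16.3% of brain genes called higher (edgeR quasi-likelihood test, Benjamini-Hochberg adjusted p under 0.05 over all genes, the rule for every call below). In each prep fitted alone the estimates of all 10 were above 0. Prep 2 alone called 4 of them, and the share of all genes called in that fit is not given here. Comparisons with 3 months share the same control libraries and are not independent of each other.

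Between successive ages, members were called at 1 step in the brain. From 15 to 24 months 9 of the 10 rose, all but Tap2 (0.22, SE 0.07, adjusted p = 0.12), where 0.679% of genes were called higher, and the median change was 0.60. The same step taken in each prep alone gave medians of 0.20, 0.72 and 0.83 for preps 1, 2 and 3, with H2-Q6 at -0.10 in prep 1. In prep 1 the median change from 24 to 28 months was larger, at 0.33, and that from 9 to 15 months was 0.21, and the steps were not tested against each other. No member was called between 9 and 3 months (edgeR, with 0 members at an unadjusted p under 0.05, and 0 by DESeq2 and 0 by voom), where 0.315% of genes were. None was called between 15 and 9 months either (2 unadjusted, 0 by DESeq2, 0 by voom), where 0% of genes were, or between 28 and 24 months (2 unadjusted, 0 by DESeq2, 1 by voom), where 1.09% were. An unadjusted p under 0.05 was reached by 7.48% of brain genes between 9 and 3 months. The share was 2.84% between 15 and 9 months and 12.4% between 28 and 24 months. By 24 months all 10 were higher than at 3 months, where 6.19% of genes were.

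H2-K1 and H2-D1 encode the classical heavy chains that present peptide to CD8 T cells. Brain H2-K1 ran from 21.8 to 49.4 CPM at 3 months (median 33.9), from 29.9 to 65.7 at 15 months (median 34.6), from 41.9 to 134.8 at 24 months (median 49.2) and from 52.5 to 76.3 at 28 months (median 61.6). Every 28-month brain lay above the highest 3-month brain. Its log2 fold change from 3 to 28 months was 0.88 (SE 0.11, adjusted p = 1.31e-09). H2-D1 had medians of 45.8, 42.2, 50.6, 69.4 and 82.4 CPM over the 5 ages, and ran from 31.9 to 74.0 CPM at 3 months and from 47.6 to 104 at 28 months. Of the 18 oldest brains 16 were above the highest young one. Its change was 0.83 (SE 0.10, adjusted p = 2.17e-10).

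H2-Q6 and H2-Q7 encode nonclassical Qa-region heavy chains. Brain H2-Q6 ran from 1.10 to 4.72 CPM at 3 months (median 2.31), from 2.36 to 14.5 at 15 months (median 3.38), from 3.93 to 25.4 at 24 months (median 6.33) and from 5.12 to 14.3 at 28 months (median 9.24). The 3- and 28-month ranges did not meet. Its log2 fold change was 1.94 (SE 0.22, adjusted p = 5.13e-11), and that of H2-Q7 was 1.79 (SE 0.22, adjusted p = 6.03e-10). H2-Q7 ran from 0.641 to 3.65 CPM at 3 months (median 1.42) and from 3.45 to 8.73 at 28 months (median 5.82), with 16 of 18 old brains above the young range. With the counts of both genes summed, which removes any split of reads between them, the change was 1.88 (adjusted p = 9.43e-11).

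H2-Q6 was also the 1 member called between 15 and 3 months (0.84, SE 0.22, adjusted p = 0.0351), where 0.524% of genes were called higher. That call lay near the threshold and was sensitive to single libraries. Leaving out any 1 of 11 libraries took it past the threshold, and without 15-month mouse 7, the highest at 14.5 CPM, it was 0.58 (adjusted p = 0.224). The other 3-month and 15-month libraries with this effect were 3-month mice 2, 3, 5, 7, 9, 11, 14 and 15 and 15-month mice 4 and 6, with changes of 0.79 to 0.83. DESeq2 called 2 members and voom 3 at this age. Without the 2 libraries that stood apart, both of other ages, H2-Q6 was at 0.85 (adjusted p = 0.00851).

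B2m, the light chain that every class I heavy chain needs, was the member with the highest level per length in the brain, with a mean of 87.2 CPM per kb at 3 months and 129 at 28 months. It ran from 55.7 to 94.2 CPM at 3 months (median 73.4) and from 91.2 to 168 at 28 months (median 106). The groups overlapped, with 15 of 18 old brains above the highest young one. The change was 0.58 (SE 0.09, adjusted p = 2.3e-07).

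Tap1 and Tap2 encode the partner chains of the peptide transporter. Tap1 ran from 4.05 to 6.92 CPM at 3 months (median 5.03) and from 7.00 to 12.6 at 28 months (median 8.53), with no overlap, and its change was 0.76 (SE 0.10, adjusted p = 1.89e-09). Tap2 ran from 10.5 to 13.8 CPM (median 12.5) and from 10.9 to 24.4 CPM (median 16.6), with 17 of 18 old brains above the young range. Its change was 0.40 (SE 0.07, adjusted p = 3.79e-06).

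Psmb8 and Psmb9 encode the inducible catalytic subunits of the immunoproteasome. Brain Psmb8 ran from 2.34 to 5.12 CPM at 3 months (median 3.87) and from 5.73 to 29.5 at 28 months (median 6.71), with no overlap. Its change of 1.06 (SE 0.16, adjusted p = 3.72e-07) was 0.85 without the 2 libraries that stood apart, of which 28-month mouse 15 held the 29.5 CPM. Psmb9 ran from 1.18 to 2.22 CPM (median 1.65) and from 1.79 to 4.94 CPM (median 2.73), and 15 of 18 old brains exceeded the young range. Its change was 0.76 (SE 0.13, adjusted p = 3.88e-06). At the step from 15 to 24 months the Psmb8 call was lost without 24-month mouse 13 (0.49, adjusted p = 0.0675, against 0.71 with it). Without both that mouse and 28-month mouse 15, Psmb8 was called at 0.51 (adjusted p = 0.000539).

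Nlrc5, the transactivator of class I genes, had the lowest level per length of the 10, at 0.185 CPM per kb at 3 months. It ran from 0.894 to 2.89 CPM at 3 months (median 1.44) and from 2.22 to 4.71 at 28 months (median 3.04), with 11 of 18 old brains above the young range. The change was 1.02 (SE 0.14, adjusted p = 2.39e-08). Per length, the order in the young brain was B2m, H2-D1, H2-K1 and Tap2, then Psmb8, H2-Q6 and Tap1 within each other's spread between libraries, then Psmb9 and H2-Q7, also within their spread, and Nlrc5.

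**Figure D1:**
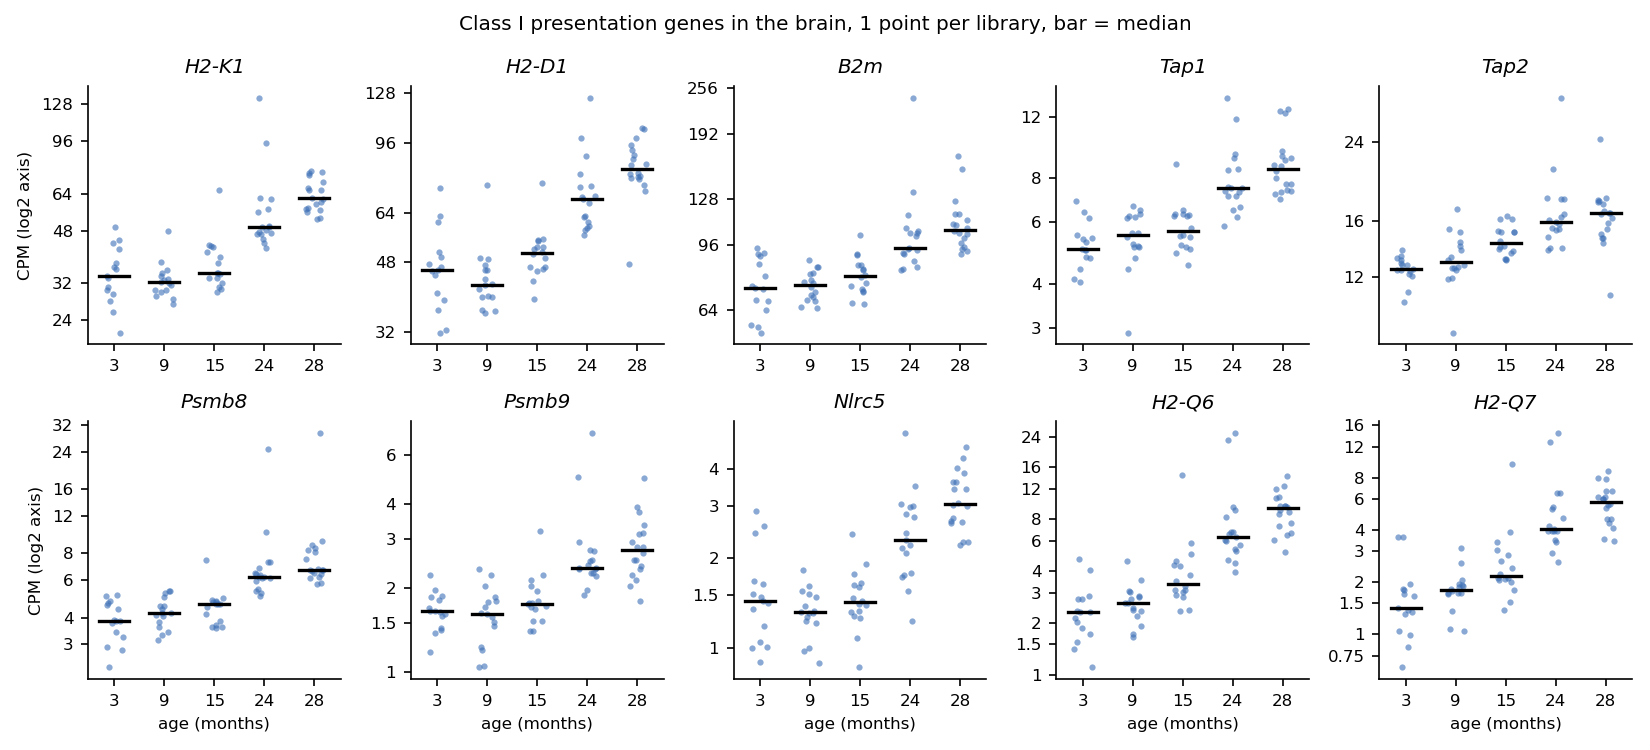
Level of each of the 10 genes in every brain library (1 point each, CPM on a log2 axis) by age in months, with the median as a bar. The medians at 24 and 28 months lie above those at 3 months for all 10 genes, and for H2-K1, Tap1, Psmb8 and H2-Q6 the 28-month points do not overlap the 3-month points.

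Some markers of other cells were higher in old brains as well, where 16.3% of all genes were called higher and 12.0% lower. Summed leukocyte markers had medians of 121 CPM at 3 months and 138 CPM at 28 months, microglia markers 337.5 and 396 CPM, T cell markers 2.23 and 2.82 CPM, B lineage markers 12.8 and 18.0 CPM, and markers of monocytes and neutrophils 9.43 and 16.3 CPM. Of the microglia markers 6 of 7 were called higher at 28 months (7 without the 2 libraries that stood apart), of the leukocyte markers 3 of 4, and of the 4 T cell markers that passed the filter 0 (edgeR), and of the 5 B lineage markers tested 1. Of the 4 monocyte and neutrophil markers tested 3 were called higher, with S100a8 at 3.16 and S100a9 at 3.01. All 3 red cell markers were called higher, with summed medians of 59.2 and 108 CPM. Of 7 endothelium markers 1 was higher and 3 lower (4 lower without those libraries), with summed medians of 221 and 209 CPM. The part of these 3 lists in the members' change was not tested. In a fit with the summed leukocyte markers as a covariate, an alternative chosen after the data were seen, all 10 genes were still called higher at 28 months, where 19.4% of genes were, with a median change of 0.69. Psmb8 then changed by 0.62 in place of 1.06, and Tap2 by 0.26 in place of 0.40. In bulk tissue, more cells that carry class I and more class I RNA per cell cannot be told apart.

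In the liver, too, all 10 genes rose between 3 and 28 months, by 1.13-fold for B2m to 1.98-fold for Nlrc5. The heavy chains H2-D1, H2-Q6 and H2-Q7, Psmb8 and Nlrc5 rose most, while H2-K1 and B2m, the most abundant members, moved least in fold. The median log2 fold change was 0.58, against 0.01 over all genes. The 10 calls compare with 31.9% of liver genes called higher, so change at this age was common in the tissue. Levels of all 10 overlapped between the ages, unlike those of 4 genes in the brain. The share of all genes without such overlap was not computed in either tissue. The estimates of all 10 were above 0 in each prep alone, down to 0.05 for B2m in prep 2. In prep 2 alone 1 of the 10 was called, and the share of all genes called there is not given here.

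The step from 15 to 24 months was again the 1 that was called in the liver. Of the 10 genes 9 rose, with 21.6% of genes called higher, and the median change was 0.61. B2m did not pass (0.10, SE 0.07, adjusted p = 0.248). Within preps 1, 2 and 3 the medians were 0.15, 0.81 and 0.71, with Tap1 at -0.02 and B2m at -0.08 in prep 1 alone. In prep 1 the median change from 24 to 28 months was 0.28. No member was called by edgeR between 9 and 3 months (0 unadjusted, 0 by DESeq2, 0 by voom; 4.69% of genes), 15 and 3 months (0 unadjusted, 0 by DESeq2, 1 by voom; 3.06% of genes called higher) or 15 and 9 months (0 unadjusted, 0 by DESeq2, 0 by voom; 0.0514%). From 24 to 28 months none was called (0 unadjusted, 0 by DESeq2, 2 by voom), although 15.3% of genes were, and the members' median was -0.03. Between 24 and 3 months all 10 were called higher, with 25.0% of genes. At that comparison Tap1 (0.56, adjusted p = 0.0133) was not called without 24-month mouse 10 (0.42, adjusted p = 0.0601) or without 24-month mouse 13 (0.33, adjusted p = 0.12).

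Liver H2-K1 ran from 1024 to 2079 CPM at 3 months (median 1339) and from 1290 to 2235 CPM at 28 months (median 1823), and 1 old liver exceeded the highest young one. Its log2 fold change was 0.38 (SE 0.07, adjusted p = 2.52e-06). H2-D1 ran from 500.1 to 1066 CPM (median 574) and from 637 to 1463 CPM (median 1053), with 8 of 18 old livers above the young range, and its change was 0.80 (SE 0.10, adjusted p = 2.95e-11). Thus H2-D1 moved from a mean of 601 to 1052 CPM while H2-K1 moved from 1353 to 1760 CPM.

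Among the Qa genes, H2-Q6 ran from 33.9 to 93.2 CPM at 3 months (median 51.0) and from 61.3 to 162 at 28 months (median 83.5). Its change was 0.84 (SE 0.13, adjusted p = 7.56e-08), and that of H2-Q7 was 0.65 (SE 0.11, adjusted p = 3.78e-07). H2-Q7 ran from 45.7 to 128.5 CPM (median 62.6) and from 71.0 to 138 CPM (median 99.1). Summed, the pair changed by 0.74 (adjusted p = 5.31e-08). H2-Q10, a liver-secreted class I chain that shares 5.56% of the 100-base stretches of H2-Q7, moved the other way, from 2556 to 2091 CPM (-0.29, SE 0.08, adjusted p = 0.000633). All H2-Q genes summed therefore changed by -0.17 (adjusted p = 0.0255).

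B2m in the liver ran from 1199 to 2063 CPM at 3 months (median 1418) and from 1133 to 1967 at 28 months (median 1694), so that no old liver exceeded the young range. The change was 0.18 (SE 0.07, adjusted p = 0.0183). Per length it was the highest member at every age, with a mean of 1695 CPM per kb at 3 months, followed by H2-K1 (460 CPM per kb) and H2-D1 (233 CPM per kb).

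Tap1 ran from 24.6 to 95.4 CPM in young livers (median 34.2) and from 24.3 to 114 CPM in old ones (median 53.4), a change of 0.51 (SE 0.19, adjusted p = 0.0188). Tap2 ran from 25.9 to 48.0 CPM (median 30.7) and from 29.9 to 70.0 CPM (median 42.1), a change of 0.46 (SE 0.11, adjusted p = 0.000189). The SD of log2 CPM of Tap1 at 3, 9, 15, 24 and 28 months was 0.480, 0.244, 0.317, 0.736 and 0.643 in the liver and 0.219, 0.292, 0.225, 0.316 and 0.272 in the brain.

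Psmb8 ran from 30.0 to 91.7 CPM at 3 months (median 34.9) and from 38.5 to 127.5 at 28 months (median 64.8), and it changed by 0.86 (SE 0.16, adjusted p = 1.7e-06). Psmb9 ran from 12.3 to 48.3 CPM (median 17.5) and from 9.85 to 55.4 CPM (median 27.0), with a change of 0.50 (SE 0.19, adjusted p = 0.0175). The lowest Psmb9 value of all livers was thus in the oldest group. Nlrc5 ran from 13.3 to 50.9 CPM (median 18.9) and from 32.6 to 67.9 CPM (median 39.5), and it changed by 0.98 (SE 0.15, adjusted p = 2.12e-08). The young maximum of every one of the 10 genes belonged to 1 mouse, 3-month mouse 12; apart from it, 15 of 16 young livers lay below the lowest old liver for Nlrc5.

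**Figure D2:**
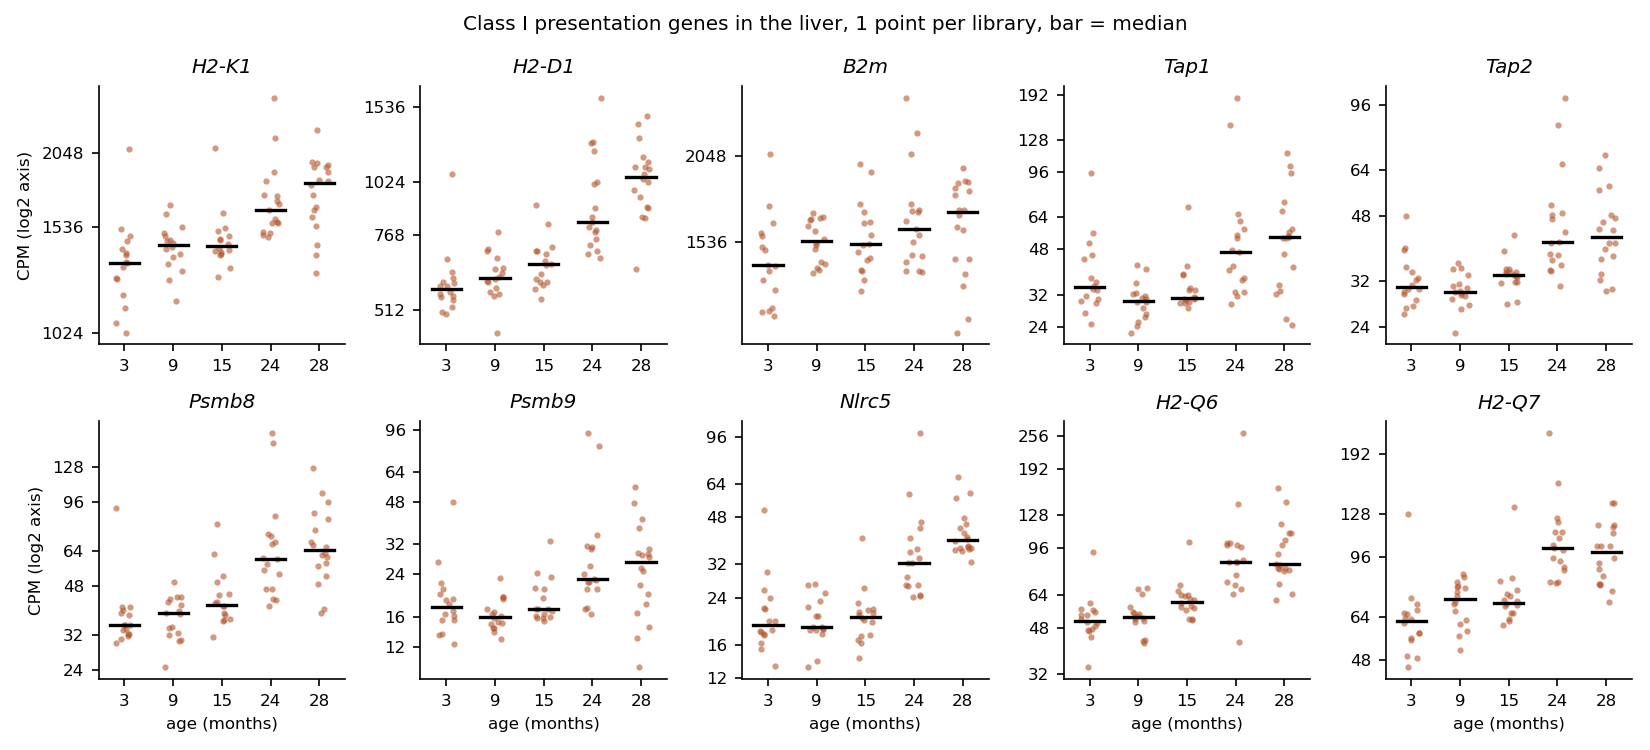
Level of each of the 10 genes in every liver library (1 point each, CPM on a log2 axis) by age in months, with the median as a bar. Single livers at 3, 15 and 24 months stand above the rest of their age in most panels, and the 3- and 28-month points overlap for all 10 genes.

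Leukocyte markers rose in the liver along with these genes. Summed leukocyte markers went from a median of 50.6 CPM at 3 months to 157 CPM at 28 months, with ranges of 39.1 to 205 and 69.3 to 492 CPM. Summed T cell markers went from 7.71 to 25.2 CPM, B lineage markers from 41.5 to 235 CPM, Kupffer cell markers from 348 to 875 CPM and markers of monocytes and neutrophils from 8.07 to 49.2 CPM. Called higher in old livers, as 31.9% of all genes were, were 10 of 11 T cell markers (Cd4, at -0.52, was called lower without the 2 livers that stood apart), 7 of 7 B lineage markers, 7 of 7 Kupffer cell markers, all 5 monocyte and neutrophil markers tested and 4 of 4 leukocyte markers. None of the markers of these lists was at 0 in all livers. Of 7 endothelium markers 2 were called higher and 2 lower. Of 3 red cell markers 2 were higher and 1 lower, and of 3 hepatocyte markers 0 and 1. Of all liver genes 30.0% were called lower.

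With the summed leukocyte markers as a covariate, an alternative chosen after the data were seen, most of the liver calls were lost. Only H2-D1 was then called higher at 28 than at 3 months (0.27, adjusted p = 0.00855), and Tap1 (-0.74, adjusted p = 3.87e-05), Tap2 (-0.26, adjusted p = 0.0137) and Psmb9 (-0.75, adjusted p = 6.16e-06) were called lower. In that fit 15.7% of liver genes were called higher and 20.9% lower, and the median change of the 10 was -0.02. For 24 against 15 months 1 gene was called, Nlrc5 (0.39, adjusted p = 0.0248), with 5.01% of genes called higher. The leukocyte markers moved with age in this tissue, so that the effects of age and of leukocyte content on the members cannot be told apart here.

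**Figure D3:**
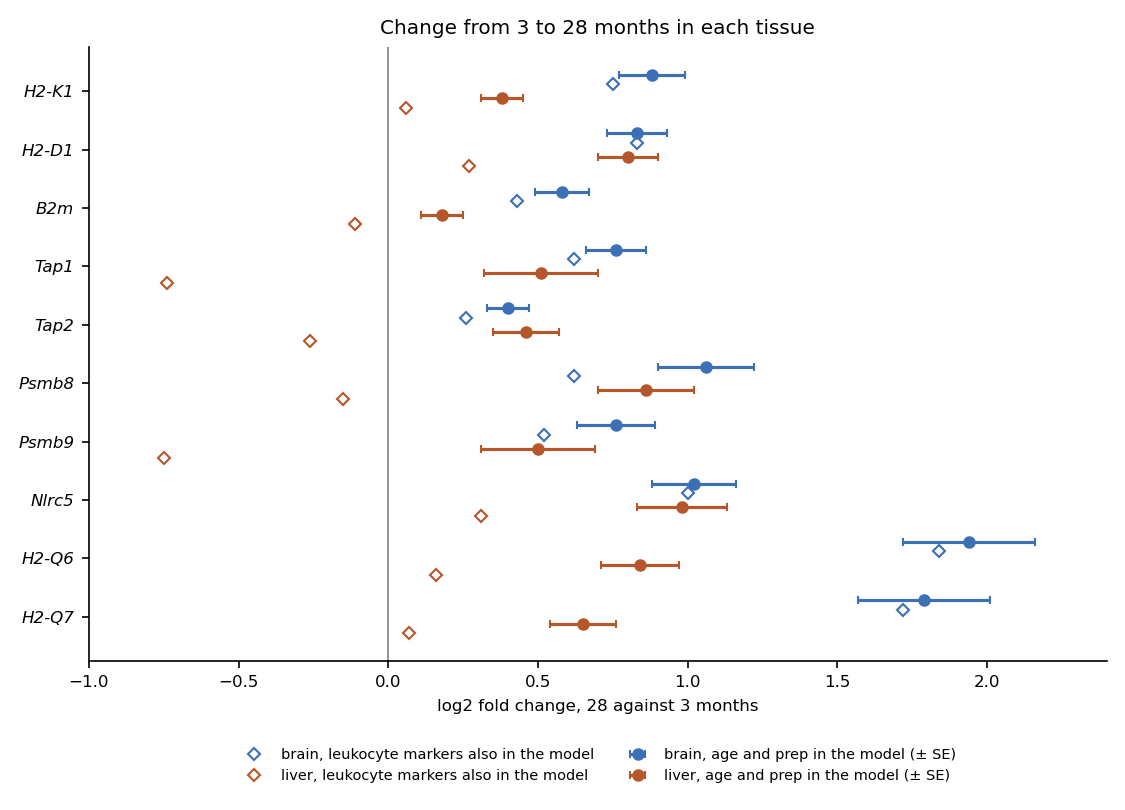
Log2 fold change from 3 to 28 months of each gene in the brain (blue) and liver (brown): filled points with bars show the estimate ± SE with age and prep in the model, and open diamonds show it with the summed leukocyte markers added. In the brain the diamonds stay above 0 for all 10 genes, and in the liver they fall on both sides of 0, from -0.75 for Psmb9 to 0.31 for Nlrc5.

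The liver held more of every gene than the brain, in CPM scaled within each tissue and without a test. At 3 months the ratio of mean levels ran from 2.6 for Tap2 to 38.9 for H2-K1, with H2-Q7 at 38.4. At 28 months it was 27.7 for H2-K1, 17.4 for H2-Q7, 10.4 for H2-Q6 (22.1 at 3 months) and 14.6 for B2m (19.4 at 3 months). For H2-D1 it went from 12.7 to 12.5 and for Nlrc5 from 13.8 to 13.4.

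The rise with age was smaller in the liver than in the brain for 4 of the 10 genes, tested as the tissue by age interaction. The difference of log2 fold changes, liver minus brain, was -0.46 for H2-K1 (SE 0.13, 95% interval -0.71 to -0.21, adjusted p = 0.00146) and -0.36 for B2m (SE 0.11, interval -0.57 to -0.15, adjusted p = 0.00279). It was -1.06 for H2-Q6 (SE 0.24, interval -1.54 to -0.59, adjusted p = 0.000113) and -1.10 for H2-Q7 (SE 0.23, interval -1.55 to -0.65, adjusted p = 2.6e-05). H2-Q6 and H2-Q7 summed changed by 1.88 in the brain and 0.74 in the liver. All H2-Q genes summed changed by 1.33 in the brain and -0.17 in the liver. The part of reads shared among H2-Q genes in these differences was not tested. Among all genes, 21.9% were called lower in the liver in the interaction test. Brain and liver of 1 mouse entered that fit as separate libraries. A mouse block in voom gave -0.47 for H2-K1, -0.37 for B2m, -1.13 for H2-Q6 and -1.18 for H2-Q7. The other 6 genes were not called in the interaction test. Their intervals were -0.26 to 0.27 for H2-D1, -0.64 to 0.22 for Tap1, -0.15 to 0.34 for Tap2, -0.56 to 0.29 for Psmb8, -0.67 to 0.24 for Psmb9 and -0.42 to 0.45 for Nlrc5, which leaves differences of these sizes possible.

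Within a mouse, brain and liver levels of H2-Q6, H2-Q7 and Psmb9 were correlated past the threshold, and the other 7 genes were not called. After age and prep means were removed in each tissue, Pearson's r over 82 mice was above 0 for all 10 genes, with a median of 0.428, against a median of -0.0051 over 14035 genes. H2-Q6 had r = 0.655 (Spearman's rho 0.421, two-sided permutation p = 1e-05, the smallest that 100000 permutations can give, adjusted p = 0.00265). H2-Q7 had r = 0.559 (rho 0.339, permutation p = 0.00041, adjusted p = 0.0333) and Psmb9 r = 0.517 (rho 0.383, permutation p = 0.0007, adjusted p = 0.0449). Those 3 passed after adjustment over all 14035 genes, where 1.63% of genes did. At an unadjusted permutation p under 0.05 there were 9 of the 10, all but B2m, against 12.4% of genes.

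For the other 7 genes r was 0.446 for Tap1 (rho 0.377, permutation p = 0.00149, adjusted p = 0.0699), 0.437 for H2-D1 (rho 0.361, permutation p = 0.00085, adjusted p = 0.0512) and 0.419 for Tap2 (rho 0.350, permutation p = 0.00974, adjusted p = 0.199). H2-K1 had r = 0.389 (rho 0.201, permutation p = 0.0135, adjusted p = 0.228) and Nlrc5 0.338 (rho 0.278, permutation p = 0.00442, adjusted p = 0.129). Psmb8 had r = 0.319 (rho 0.233, permutation p = 0.0466, adjusted p = 0.392), and B2m r = 0.172 (rho -0.00066, permutation p = 0.196, adjusted p = 0.638). The rank correlation was below Pearson's r for all 10 genes.

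Without the 2 mice farthest from the brain median, r was lower for 8 of the 10 genes: 0.541 for H2-Q6, 0.444 for H2-Q7, 0.328 for Psmb9, 0.251 for H2-K1, 0.411 for H2-D1, 0.395 for Tap1, 0.394 for Tap2 and 0.306 for Nlrc5. It was higher for Psmb8 (0.391) and B2m (0.179). Within preps 1, 2 and 3 r was 0.647, 0.693 and 0.624 for H2-Q6, 0.655, 0.551 and 0.460 for H2-Q7 and 0.427, 0.673 and 0.410 for Psmb9. By age, the median r of the 10 genes was 0.177 at 3 months, 0.675 at 15 months, 0.754 at 24 months and 0.213 at 28 months, with 9 months between these. H2-Q6 had 0.681, 0.373, 0.695, 0.747 and 0.685 at the 5 ages. With the summed leukocyte markers of each tissue removed as well, an alternative chosen after the data were seen, the median r was 0.26, with H2-Q6 at 0.383, Psmb9 at 0.374 and H2-Q7 at 0.258. Tap2, Tap1 and Psmb8 were then at 0.382, 0.376 and 0.262, H2-D1, Nlrc5 and H2-K1 at 0.184, 0.182 and 0.157, and B2m at -0.0115.

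The 15-month mouse 7, picked after the data were seen, was the clearest case. Among 16 mice of its age it was the highest for all 10 genes in both tissues. Its brain held 14.5 CPM of H2-Q6 against a median of 3.38 CPM for its age, and 65.7 CPM of H2-K1 against 34.6. Its liver held 101 CPM of H2-Q6 against 60.1, and 69.9 CPM of Tap1 against 31.2. Summed leukocyte markers were 136.5 CPM in this brain (median of the age 127.7) and 126 CPM in this liver (median 64.7).

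At 24 months, mice 10 and 13 were the high ones. In mouse 13 the brain held 25.4 CPM of H2-Q6 (median 6.33) and 135 CPM of H2-K1 (median 49.2), and the liver 264 CPM of H2-Q6 (median 85.6) and 170.5 CPM of Psmb8 (median 59.9). In mouse 10 the brain held the most Tap1, 13.6 CPM (median 7.49), and the liver the most H2-K1, 2529 CPM (median 1639). Leukocyte markers in their livers were 624 CPM for mouse 13 and 389.5 CPM for mouse 10 against a median of 120 CPM, and B lineage markers in the liver of mouse 13 were 3711 CPM against 266 CPM. In their brains, leukocyte markers were 210 CPM and 137.4 CPM against 136 CPM. The part of leukocyte content in the levels of these 2 mice was not tested.

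The highest mouse was the same in both tissues for 2, 3, 10, 4 and 0 of the 10 genes at 3, 9, 15, 24 and 28 months. As the genes varied together within a tissue, these are not separate observations. The share of all genes with the same highest mouse was not computed. The 3-month mouse 12 had the highest liver level of all 10 genes, with 205 CPM of leukocyte markers against 50.6, and the highest brain level of H2-Q6 and H2-Q7 only. The brain of 28-month mouse 15 was the highest for B2m, Tap1, Tap2, Psmb8 and Psmb9, whereas its liver was above the median of its age for 1 of the 10 genes. Without that mouse the median r was 0.519.

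**Figure D4:**
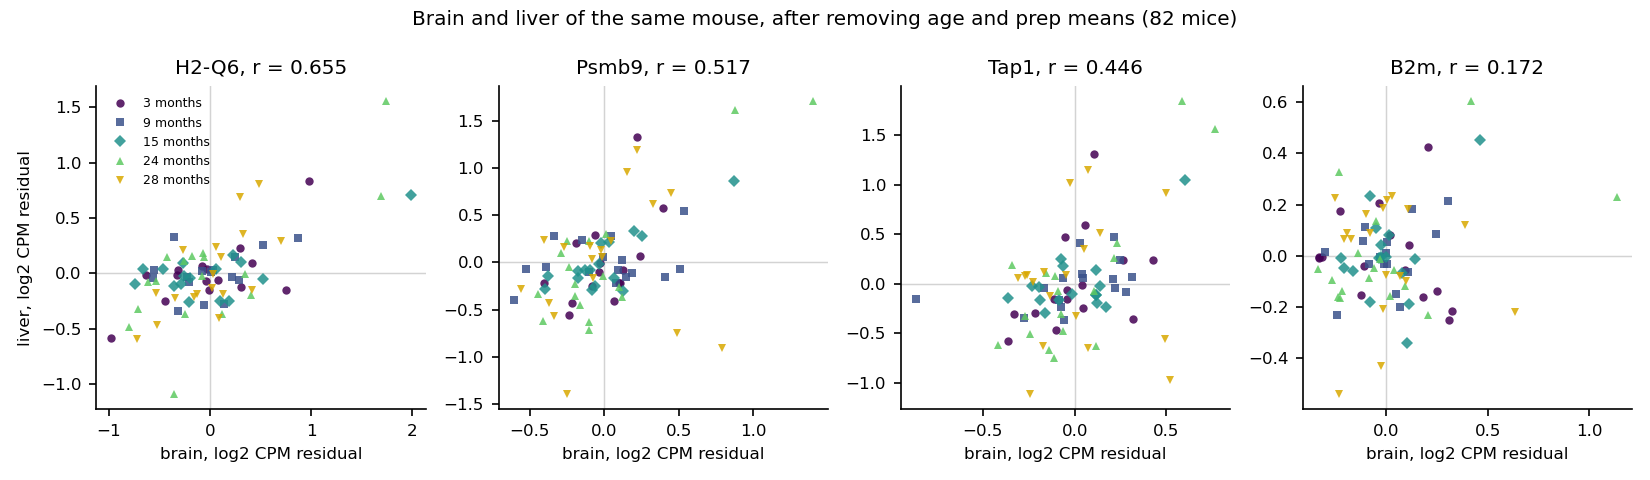
Brain (x) against liver (y) residual log2 CPM of the same mouse after removal of age and prep means, 1 point per mouse and symbols by age, for H2-Q6, Psmb9, Tap1 and B2m. Pearson's r falls from 0.655 for H2-Q6 to 0.172 for B2m, and a few mice at 15 and 24 months sit far to the upper right.

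Within each tissue, the 10 genes varied together from mouse to mouse. Over 82 brain libraries, with age and prep means removed, r between 2 members was 0.404 to 0.938 over 45 pairs (median 0.648), and over 83 livers it was 0.315 to 0.96 (median 0.698). The median r of a member with all genes was -0.0953 to 0.0395 in the brain. The closest pair in the brain was H2-Q6 with H2-Q7 (0.938), whose transcripts share 100-base stretches, and in the liver it was Tap1 with Psmb9 (0.96), which overlap at their 5′ ends. The closest partner of Nlrc5 was less like it than those of the other 9 genes were, at 0.685 (H2-K1) in the brain and 0.677 (Tap1) in the liver. These values describe libraries that share depth and cell makeup, and carry no test.

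Outside the set, the genes most like its mean z-score in the brain were H2-T23 (r = 0.841), H2-Q4 (0.81), Igtp (0.772), Ifi47 (0.771) and Isg15 (0.746). In the liver they included Ly6a (0.914), Gm12250 (0.914), H2-Q4 (0.914) and Tgtp1 (0.912). H2-Q4 was among the nearest genes in both tissues.

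The balance of inducible over constitutive proteasome subunits rose with age in both tissues. Psmb8 replaces Psmb5, Psmb9 replaces Psmb6 and Psmb10 replaces Psmb7 when immunoproteasomes assemble. In the brain, Psmb8 had 6.12% of the counts of Psmb5 at 3 months and 11.8% at 28 months, on the mean log2 scale. The log2 ratio ran from -4.76 to -3.33 and then from -3.42 to -2.27, with 15 of 18 old brains above the young range, and the difference was 0.941 (permutation within prep, adjusted p = 2e-05 over 6 ratios). Psmb9 over Psmb6 changed by 0.519 (permutation adjusted p = 0.000552), from 2.09% to 3.00%, and Psmb10 over Psmb7 by 0.247 (permutation adjusted p = 4.5e-05), from 33.7% to 40.0%.

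In the liver the same ratios started higher. Psmb8 had 52.9% of the counts of Psmb5 at 3 months and 129% at 28 months, a difference of 1.29 in log2 (permutation adjusted p = 2e-05), with 6 of 18 old livers above the young range. Psmb9 over Psmb6 went from 14.4% to 23.6% (0.714, permutation adjusted p = 0.00373) and Psmb10 over Psmb7 from 33.2% to 69.4% (1.06, permutation adjusted p = 2e-05). Both sides of the ratio moved in the liver, where Psmb5 (-0.44), Psmb6 (-0.29) and Psmb7 (-0.46) were called lower at 28 months, as 30.0% of liver genes were. In the brain Psmb6 (0.38, adjusted p = 0.0394) and Psmb7 (0.37, adjusted p = 0.0383) were called higher, but not without the 2 libraries that stood apart. Ratios of raw counts do not depend on library scaling, but they compare genes of different length and so give no ratio of molecules. Cells of different type could hold the 2 subunits, which was not tested.

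**Figure D5:**
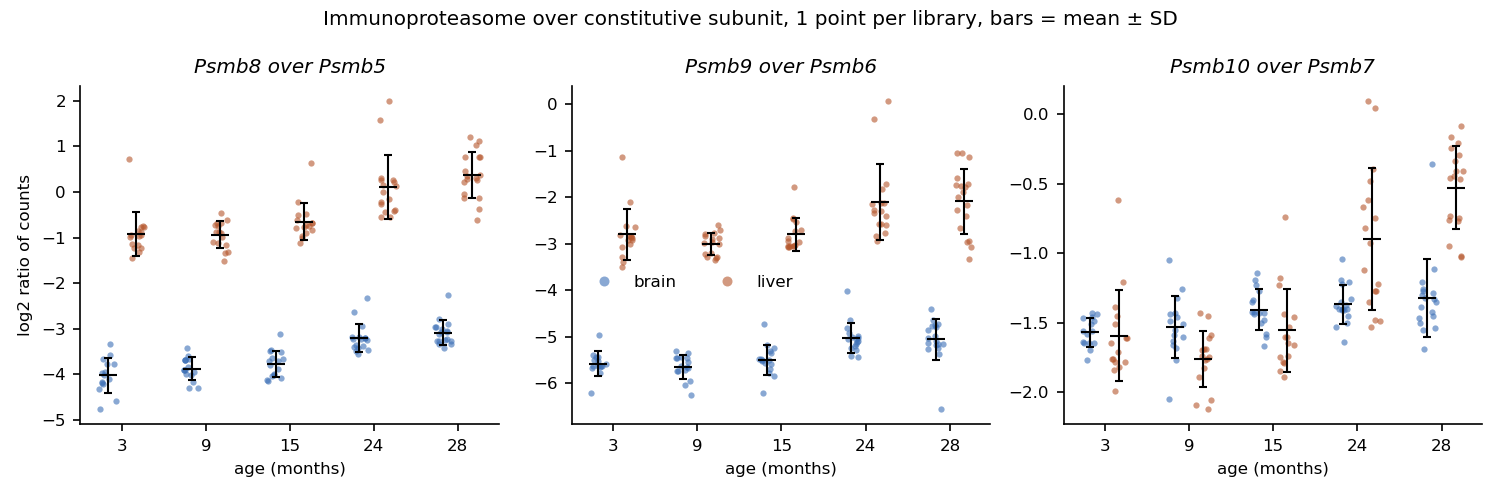
Log2 ratio of counts of Psmb8 over Psmb5, Psmb9 over Psmb6 and Psmb10 over Psmb7 in each library by age in months (blue, brain; brown, liver), with mean ± SD as black bars. The means at 28 months lie above those at 3 months in both tissues, by 0.941 and 1.29 for Psmb8 over Psmb5, while single libraries overlap in every panel.

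Several other class I genes rose too. In the brain 8 of 14 tested class I heavy chain and class I-like genes were called higher at 28 months and 0 lower, with 16.3% and 12.0% of all brain genes, and the median was 0.52, among them H2-Q5 (1.62, SE 0.22), H2-Q4 (1.06, SE 0.14) and Mr1 (0.59, SE 0.08), which presents microbial metabolites. Without the 2 libraries that stood apart, 9 were higher and 1 lower. In the liver 10 of 16 were higher and 2 lower, with 31.9% and 30.0% of all liver genes, and the median was 0.49. H2-M2 (3.23, SE 0.51) and H2-Q1 (1.54, SE 0.27) rose most, and H2-Q10 and Fcgrt, the neonatal Fc receptor (-0.45, SE 0.06), fell. Reads that these genes may share make single values uncertain.

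Chaperones that load peptide did not follow as a group. Of 6 loading and trimming genes, 1 was higher in the brain, Tapbp, which bridges TAP and the heavy chain (0.24, SE 0.07, adjusted p = 0.00382), and Pdia3 (-0.25) and Canx (-0.09, adjusted p = 0.05 after rounding) were lower, where 16.3% of brain genes were called higher and 12.0% lower. Without the 2 libraries that stood apart Canx was not called (adjusted p = 0.0558) and Calr was (-0.34). In the liver Tapbp (0.66, SE 0.09), its homologue Tapbpl (0.43, SE 0.07) and the trimming peptidase Erap1 (0.17, SE 0.05) rose, and the general chaperones Calr (-0.41), Canx (-0.31) and Pdia3 (-0.34) fell, with 31.9% of liver genes called higher and 30.0% lower. The third inducible subunit Psmb10 rose by 0.82 in the brain and by 0.26 without the 2 libraries that stood apart, and by 0.58 in the liver. The proteasome activator genes Psme1 (0.37 and 0.26) and Psme2 (0.40 and 0.18) were called higher in brain and liver, although without those 2 libraries brain Psme1 was 0.18 (adjusted p = 0.00112) and brain Psme2 was 0.10 (adjusted p = 0.0672).

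Regulators were called higher at shares near the background in the brain and above it in the liver, with no test of that difference. In the brain 3 of 19 tested regulators were higher, namely the interferon-gamma receptor chain Ifngr1 (0.22, SE 0.04), Irf1 (0.20, SE 0.06) and Rfx5 (0.14, SE 0.05), and 3 were lower, Nfya (-0.56, SE 0.08), Creb1 (-0.31, SE 0.08) and Ifngr2 (-0.12, SE 0.04). Of all brain genes 16.3% were called higher and 12.0% lower. In the liver 8 of 19 were higher and 2 lower, with 31.9% and 30.0% of all genes. Without the libraries that stood apart, 4 were higher in the brain and 7 in the liver. Ciita, which controls class II genes (1.55, SE 0.34), Socs1, an inhibitor of cytokine signalling (1.29, SE 0.33), Ifngr1 (0.71, SE 0.10) and Irf1 (0.71, SE 0.14) were among the 8.

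Receptors that bind class I were nearly all below the filter in the brain, where 1 of 5 was tested. That one, Pirb, an inhibitory receptor of myeloid cells, rose by 1.27 (SE 0.16, adjusted p = 1.7e-09), as 16.3% of brain genes were called higher. In the liver all 5 rose, where 31.9% of genes were called higher, with a median of 1.91, led by the CD8 chains Cd8a (3.04, SE 0.43) and Cd8b1 (2.81, SE 0.45), both of which are also on the T cell marker list.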

How the data were processed

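The authors deposited 1 table of raw read counts per gene and library for each tissue. Per the submitters' processing notes, cutadapt 2.8, HISAT2 2.1.0, SAMtools 1.9 and featureCounts of Subread 2.0.1 were used with builds GRCm38.p6 and mm10, and per the labels' protocols libraries came from a stranded kit. The annotation release, the strand setting and the treatment of shared reads are not given in the sources used here. Symbols matched 55144 of 55471 identifiers, and 0 columns lacked a sample.

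Each tissue was fitted over all its libraries with edgeR 4.0.16 (R 4.3.3), with TMM scaling, filterByExpr by age, and age and prep as terms of a quasi-likelihood model. Tests were two-sided, adjusted by Benjamini-Hochberg over all genes tested, with calls under 0.05. CPM are of TMM-scaled libraries, and log2 CPM used a prior count of 2. DESeq2 1.42.0 and voom with quality weights (limma 3.58.1) were alternatives, as were single preps, other scalings and leaving out each library. The interaction was tested in 1 fit over both tissues, without a term for the mouse. Within-mouse correlations and subunit ratios were tested with 100000 permutations, within age and prep or within prep. Gene spans and shared stretches came from GENCODE M21, which may differ from the authors' annotation. All 10 members were named by rule, and further genes from fixed pathway and marker lists. The members and the lists were chosen with earlier results of these data known. The fits and the permutation test were tested on simulated data. Replicates are separate mice by number, and p-values measure the spread between them. Replicate numbers did not pair libraries of a tissue across ages. 1 gene near the set is not reported here.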

Additional observations from a re-analysis of the deposited data

Results flagged for a closer look

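The change from 3 to 28 months differed between the tissues for 4 genes by the test of the tissue by age interaction. Liver minus brain, the difference of log2 fold changes was -0.46 for H2-K1 (0.88 in the brain and 0.38 in the liver), -0.36 for B2m (0.58 and 0.18), -1.06 for H2-Q6 (1.94 and 0.84) and -1.10 for H2-Q7 (1.79 and 0.65). H2-D1, a classical heavy chain like H2-K1, had a difference of 0.01 with an interval of -0.26 to 0.27. Summed leukocyte markers had medians of 50.6 and 157 CPM at 3 and 28 months in the liver and 121 and 138 CPM in the brain, and their part in these differences was not tested.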

How the results depend on the processing

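For counts of called genes and summary values, 1408 of 1464 recomputed values were labelled unmoved, and for single genes 5592 of 5810. A count of calls was unmoved if it stayed within a fixed ratio of the main count, so some unmoved counts differed. Most of these refits left out only 1 library, and those of the age comparisons kept the dispersion trend of the full fit. Depth limits Nlrc5, Psmb9 and H2-Q7 in the brain, at minima of 17, 20 and 20 counts. Single preps had fewer libraries and gave fewer calls. The shares of all genes called in single preps, by DESeq2 and by voom are not given here, so these counts stand without a background. Preps 1, 2 and 3 alone called 5, 2 and 4 of the 10 in the brain between 24 and 3 months, and 0, 0 and 0 for 24 against 15 months as well as for 15 against 3 months. For 28 against 3 months prep 2 alone called 4 brain members and 1 liver member. In the liver, prep 1 called 2 and prep 2 called 5 between 24 and 3 months, and prep 1 called 0 between 24 and 15 months. Between 24 and 15 months, prep 1 alone gave -0.10 for brain H2-Q6 and -0.02 and -0.08 for liver Tap1 and B2m. The ratio Psmb10 over Psmb7 in the brain was 0.17 (permutation adjusted p = 0.087) in prep 1, Psmb9 over Psmb6 in the brain 0.31 (0.446) in prep 3, and in the liver 0.49 (0.286) in prep 2 and 0.85 (0.124) in prep 3.

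Brain calls between 15 and 3 months were 2 by DESeq2, 3 by voom and 3 without the 2 libraries least like the others. From 24 to 28 months, brain calls were 1 by voom and 1 without those libraries, and liver calls 2 and 1. Liver calls between 15 and 3 months were 1 by voom. With leukocyte markers as a covariate, chosen after seeing the data, liver calls were 1, 2, 5 and 4 for 9, 15, 24 and 28 against 3 months, 1 for 24 against 15 and 3 for 28 against 24 months. Of these 0, 0, 3, 1, 1 and 0 were higher and 1, 2, 2, 3, 0 and 3 lower. Shares of all liver genes called in that fit are given above for 28 against 3 and 24 against 15 months only. In that fit B2m was -0.02 and -0.11, Tap1 -0.52 and -0.74, Tap2 -0.03 and -0.26 and Psmb9 -0.36 and -0.75 at 24 and 28 against 3 months. Psmb8 was -0.15 at 28 months, and Tap1 -0.04 and Psmb9 -0.06 for 24 against 15 months. All H2-Q genes summed gave -0.17 for 28 against 3 and -0.10 for 24 against 15 months in the liver. The cause of these differences between settings was not tested.

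The within-mouse median r was 0.26 with leukocyte markers removed, 0.177, 0.675, 0.754 and 0.213 at 3, 15, 24 and 28 months alone and 0.566 in prep 2. Leaving out 1 mouse gave 0.365 to 0.519. Leaving out 1 brain library gave 0 to 2 calls for 15 against 3 months, 10 to 10 for 24 and for 28 against 3 months, 8 to 9 for 24 against 15 months and 0 elsewhere. In the liver it gave 0 to 1 for 15 against 3 months, 9 to 10 for 24 and 10 to 10 for 28 against 3 months, 9 to 9 for 24 against 15 months, 0 to 1 for 28 against 24 months and 0 elsewhere. The single liver calls came without 3-month mouse 12, and without 24-month mouse 10 or 13. The 2 brain calls came without 3-month mouse 12 or 13, or 24-month mouse 13.

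Replicate numbers do not pair libraries within a tissue. Same-numbered libraries had a median r of 0.00955 in the brain and 0.0091 in the liver, and 9 of 82 and 3 of 83 were most like their own number. With the replicate block, 10 members were still called at 24 and 28 months against 3 and 9 at 24 against 15 months in both tissues, and it changed no other count.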
